A study of Mus musculus with 9 samples.

Results

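The comparison set the skin of mice of the transgenic line LA against that of the transgenic line L84. It rested on 4 of the 9 arrays of the series, LA 1 and LA 2 against L84 1 and L84 2, chosen by their titles, and on all 12393 genes that at least 1 probe set named alone. Each array received RNA pooled from whole skin of mice of 1 genotype, taken 30 days after birth, and the labels give a mixed C57BL/DBA/FVB background for every pool. The study hybridised 3 pools of control mice (LC) and 2 pools of each of the lines L60, L84 and LA to Affymetrix mouse arrays. The series title concerns a constitutively active form of the kinase Akt, ectodermal defects and impaired BMP signalling. The labels give neither the promoter that drives the transgene, nor how L84 and LA differ, nor how many mice made up a pool, nor whether pools of 1 line shared mice or litters. The p-values below therefore measure only the spread between these pools. The LC arrays entered the estimate of that spread, together with the L60 arrays, and otherwise only placed the direction of each difference.

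Akt is a kinase activated downstream of growth factor receptors through phosphoinositide 3-kinase, and it holds back the FOXO transcription factors while promoting growth and survival. Bone morphogenetic proteins (BMPs) act through Smad proteins on target genes such as the Id genes and, in the hair follicle, are needed for precursor cells of the matrix to form the hair shaft. Skin also holds resident immune cells, among them the Langerhans cells of the epidermis, which take up antigens and present them on major histocompatibility complex (MHC) class II molecules.

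The deposited values are scores in which every probe set was standardised across all 9 arrays, so a value of 1 is 1 SD of the probe set. The difference between the lines is given below as the mean score in LA minus the mean score in L84, in the same SDs, and it carries neither an expression level nor a fold change. Markers of skin such as Krt5 and Krt10 were measured, but a score cannot show whether a gene was expressed, so the tissue label could not be checked against them.

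The 4 arrays did not group by line. Over all genes, L84 1 and L84 2 correlated at -0.296, LA 1 and LA 2 at 0.229, and L84 2 and LA 2, of different lines, at 0.337. L84 1 and LA 2 carried the widest scores (SDs of 1.20 and 1.32 over genes, against 0.907 on L84 2 and 0.899 on LA 1) and correlated at -0.404 with each other. Probe sets for 18S ribosomal RNA averaged 0.339 on L84 1 and between -0.625 and -0.528 on the other 3. Xist, the RNA that coats the silenced X chromosome, had scores of -1.06 on L84 1 and -0.822 on LA 1, against 0.904 on L84 2 and 0.0770 on LA 2. It was also negative on LC 1 and L60 1 (-0.915 and -0.900) and positive on LC 2, LC 3 and L60 2 (0.604, 0.632 and 1.48). Because L84 1 and LA 2 stood apart, the gene lists below are also given without 1 array or the other. Over all 12393 genes the median difference was 0.117, and 53.6% of genes scored higher in LA. Setting the median of each array to 0 moved that median difference to -0.0307.

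2 of the 12393 genes (0.0161%) differed between the lines by limma's linear model at a Benjamini-Hochberg adjusted p under 0.05, 1 in each direction (0.00807% of genes higher and 0.00807% lower). Slc37a1, which encodes a sugar phosphate transporter of the endoplasmic reticulum, scored -0.598 and -0.500 on the L84 arrays, 1.85 and 1.51 on the LA arrays, and -0.152 on each of the 3 LC arrays. Both LA pools were thus above every LC and L84 pool, and both L84 pools lay below LC. Slc37a1 rose in LA over L84 by 2.23 ± 0.110 SDs (SE, adjusted p = 0.0341 by limma, n = 2 and 2). Its LC arrays were tied, which adds nothing to the residual spread that the test uses, and how far the call rests on the tie was not tested. D17H6S56E-5, a locus of the MHC class III region also listed as G7e, scored 0.497 and 0.559 on the L84 arrays, -1.72 and -1.76 on the LA arrays, and 0.381 to 0.421 on the LC arrays. It fell in LA by 2.27 ± 0.0843 SDs (adjusted p = 0.0164 by limma). Its 2 probe sets, taken alone, differed by -2.22 ± 0.174 and -2.32 ± 0.166 and did not pass (adjusted p = 0.0999 and 0.0815 by limma). They deviated in opposite directions on the LA arrays, so the small SE of the D17H6S56E-5 mean is uncertain. Here the LA pools stood apart and the L84 pools lay just above the control pools in the mean of the probe sets. In neither probe set alone did both L84 pools lie above every LC pool.

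Neither call was stable to the choice of arrays. The Slc37a1 call held without L84 2, LA 1 or LA 2 (adjusted p = 0.0431, 0.00863 and 0.00949 by limma). It was lost without LC 1, LC 2, LC 3, L60 1, L60 2 or L84 1, with adjusted p of 0.181, 0.171, 0.137, 0.224, 0.224 and 0.157. The D17H6S56E-5 call held without L60 1 or L60 2 (0.00217 each) and without L84 2 (0.0308). It was lost without LC 1, LC 2, LC 3, L84 1, LA 1 or LA 2, with limma's adjusted p of 0.109, 0.107, 0.0524, 0.0979, 0.0602 and 0.0855. With limma's moderated variance the adjusted p of both genes was 0.394. The differences themselves stayed between 2.06 and 2.39 for Slc37a1 and between -2.42 and -2.22 for D17H6S56E-5 over all alternatives run. At an unadjusted p under 0.05 there were 1317 genes (10.6%), of which 871 scored higher in LA (7.03%) and 446 lower (3.6%).

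The other genes of smallest p in each direction did not pass. Among those higher in LA, Gem, a small GTP-binding protein that holds back voltage-gated calcium channels, scored -0.243 and -0.169 in L84 and 1.59 and 1.85 in LA, a difference of 1.93 ± 0.124 (adjusted p = 0.0586 by limma). Klf2, a transcription factor of resting endothelium and T cells, scored -0.789 and -0.741 in L84 and 1.92 and 1.52 in LA, a difference of 2.48 ± 0.180. Mylk, the kinase that phosphorylates myosin light chain in smooth muscle, differed by 2.20 ± 0.148, and the cytochrome P450 gene Cyp2d22 by 1.64 ± 0.120. For all 4 of these genes every LA pool lay above every LC and L84 pool, and the adjusted p was 0.0586. The Cyp2d22 probe sets, however, deviated in opposite directions on the LA arrays. Taken alone they differed by 1.46 ± 0.859 and 1.83 ± 0.649, so the small SE of the Cyp2d22 mean is uncertain. The Mylk probe sets also deviated in opposite directions, with SEs of 0.272 to 0.601 taken alone, so the SE of the Mylk mean is uncertain too. Cd207, which encodes langerin, the defining protein of Langerhans cells, scored 0.198 and 0.0850 in L84, 1.61 and 1.60 in LA, and -1.12 to -0.746 in LC. Its difference of 1.47 ± 0.140 had an adjusted p of 0.152 by limma. Tff2, a secreted trefoil peptide, showed the largest difference among the named genes, 2.77 ± 0.260, from -1.76 and -0.961 in L84 to 1.37 and 1.44 in LA, with all LC arrays tied at 0.00621.

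Other genes in this group were Ace, the angiotensin-converting enzyme (2.33 ± 0.240), Tbx3, a T-box transcription factor (1.28 ± 0.132), and Serpina3n, a secreted protease inhibitor (2.28 ± 0.238). The Tbx3 probe sets disagreed, scoring 2.10 and -0.397, and 0.318 and 2.33, on LA 1 and LA 2. Taken alone they differed by 0.971 ± 0.972 and 1.59 ± 0.819, so the small SE of the Tbx3 mean is uncertain. Scn9a, a voltage-gated sodium channel of pain-sensing neurons, differed by 2.67 ± 0.302 and the UDP-glucose receptor gene P2ry14 by 2.28 ± 0.264. The aspartic protease gene Napsa differed by 1.62 ± 0.167 and the X-linked gene Magix by 2.70 ± 0.298. Hp, which encodes haptoglobin, the plasma protein that binds free haemoglobin, was the only one of the 15 whose LC mean was nearer LA: it scored -1.76 and -1.56 in L84, 0.763 and 0.0987 in LA, and 0.730 to 0.840 in LC. Its difference was 2.09 ± 0.225 (adjusted p = 0.154 by limma).

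Among the genes lower in LA, H2-Eb1, the beta chain of the class II molecule E, scored 0.843 and 1.19 in L84, -1.40 and -1.88 in LA, and 0.117 to 0.191 in LC. Its difference was -2.66 ± 0.191, the largest of the 15 (adjusted p = 0.0586 by limma). It passed without L84 2 (0.0431) and without L84 1 and LA 2 together (0.0419), and its adjusted p was between 0.0626 and 0.896 under the other alternatives. Sfrp1, a secreted inhibitor of Wnt ligands, scored 0.265 and 0.623 in L84, -1.52 and -1.32 in LA, and 0.242 to 0.425 in LC, a difference of -1.87 ± 0.183 (adjusted p = 0.152). LA thus stood apart from both L84 and LC in this gene too. The Sfrp1 probe sets had SEs of 0.384 to 0.817 taken alone and deviated in opposite directions on the LA arrays. The small SE of the Sfrp1 mean is therefore uncertain.

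Other genes among the 15 lower in LA followed. Cks1b, a subunit of cyclin-dependent kinases, differed by -1.55 ± 0.168. Tfdp1, the DNA-binding partner of E2F factors, differed by -1.64 ± 0.178, and Mis18a, which prepares centromeres for new CENP-A, by -1.37 ± 0.142. Chtf8, a subunit of a clamp loader for sister chromatid cohesion, differed by -2.0 ± 0.258. In each of these 4 genes both LA pools lay below all L84 and LC pools. The Mis18a probe sets, taken alone, had SEs of 0.464 and 0.358, and those of Cks1b 0.244 and 0.316. In both genes they deviated in opposite directions on the LA arrays, so the small SEs of the means are uncertain.

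The RNA genes Upf1, the helicase of nonsense-mediated decay, and Ddx39a, an RNA helicase, differed by -1.41 ± 0.154 and -1.02 ± 0.123. The Ddx39a probe sets had SEs of 0.234 to 1.20 taken alone, and in some of them the lines overlapped. The small SE of the Ddx39a mean is therefore uncertain. The mitochondrial ribosomal gene Mrps12 differed by -1.94 ± 0.194 and the zinc finger gene Zfp275 by -2.11 ± 0.264. Another group was marked by high L84 scores. Akr1b8, an aldo-keto reductase, scored 1.42 and 2.01 in L84 against -0.410 and -0.784 in LA and -0.730 to -0.410 in LC. The proton pump subunit gene Atp6v0a4 scored 1.53 and 1.75 in L84 against -1.29 and -0.468 in LA. The amino acid transporter gene Slc6a20a scored 1.51 and 1.83 in L84 against -0.365 and -0.250 in LA. In these 3 genes the LC mean was nearer LA, so the line that stood apart was L84. Nt5c2, a cytosolic nucleotidase, had 3 probe sets that disagreed (0.642, -0.932 and -1.92), and its mean difference of -0.737 ± 0.0439 (adjusted p = 0.0567 by limma) is uncertain for that reason.

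**Figure D1:**
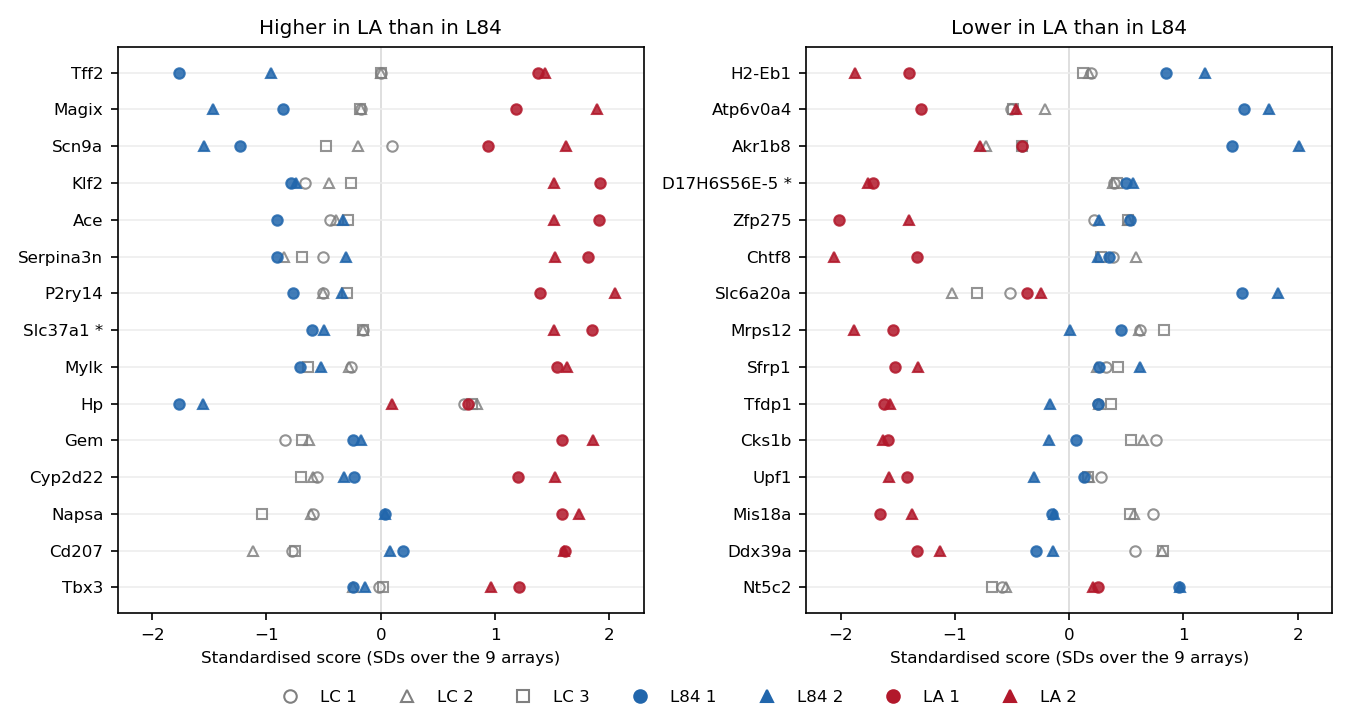
Standardised scores, in SDs over the 9 arrays, of the 15 genes named in each direction on the LC (grey), L84 (blue) and LA (red) arrays, ordered by the size of the difference. An asterisk marks the 2 genes that passed limma's test, Slc37a1 and D17H6S56E-5. For most genes the LA arrays stand away from LC, while in Akr1b8, Atp6v0a4, Slc6a20a and Hp the L84 arrays do.

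Both genes that passed lie on chromosome 17, as do Tff2, H2-Eb1 and Rasal3. By the gene order of GRCm38.p6, Tff2 comes first, followed by Slc37a1, Rasal3, the class II genes and D17H6S56E-5. Of 597 measured genes on chromosome 17, 82 had an unadjusted p under 0.05 (13.7%, against 10.6% of all placed genes). The next highest share was 13.2%, on chromosome 6. Of the 52 genes with an unadjusted p under 0.001, 7 were on chromosome 17 and 7 on chromosome 8. Within the stretch of 96 measured genes from Tff2 to D17H6S56E-5, 23 had an unadjusted p under 0.05 (24.0%), 16 of them higher in LA, and 38 did not overlap between the lines (39.6%, against 33.5% of all genes). Over the 499 other ordered genes of the chromosome, 58 had an unadjusted p under 0.05 (11.6%) and 168 did not overlap (33.7%). The ends of the stretch were chosen after its values were seen, so these counts are a description.

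Rasal3, a regulator of Ras in blood cells, scored -1.45 and -1.11 in L84, 1.03 and 1.56 in LA and 0.308 to 0.399 in LC, a difference of 2.57 ± 0.313 (adjusted p = 0.184 by limma). Sik1, a salt-inducible kinase, differed by 2.03 ± 0.441, and Vps52, a subunit of a vesicle tethering complex, by 1.74 ± 0.376. Tnxb, the extracellular matrix protein tenascin X, differed by 1.53 ± 0.282, while H2-K1, an MHC class I heavy chain, differed by 0.711 ± 0.133. Tnf, the inflammatory cytokine, lies beyond D17H6S56E-5 and differed by 2.04 ± 0.294. None of these 6 genes passed. The labels do not say which of the background strains each line's chromosome 17 came from, and a part of the background in these differences was not tested.

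**Figure D2:**
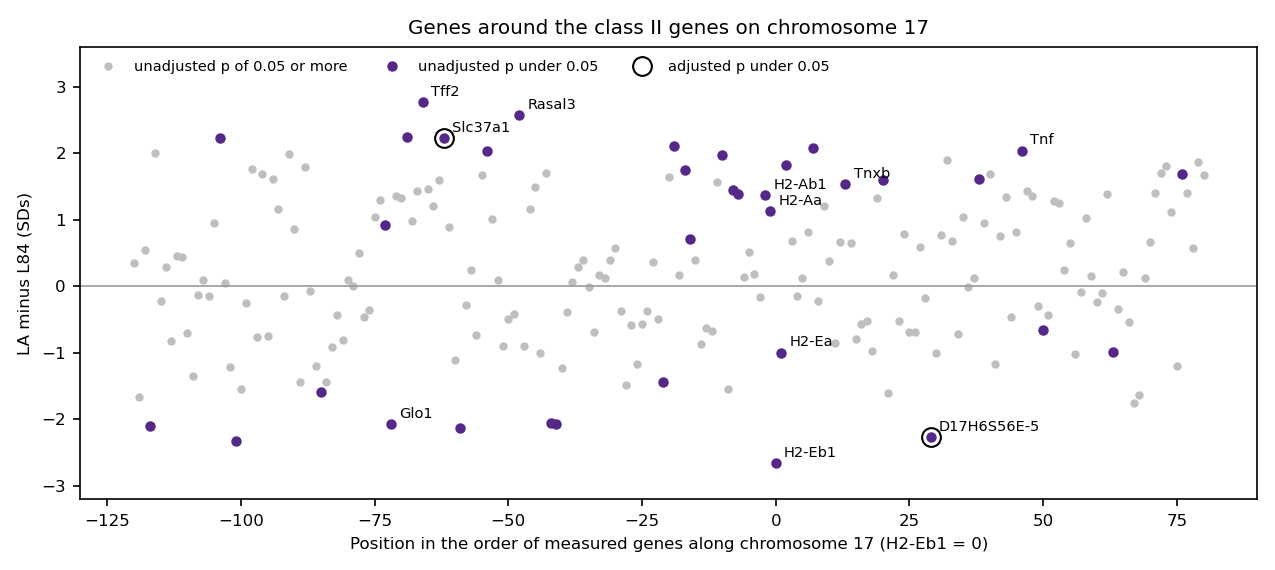
Difference LA minus L84, in SDs, of measured genes along chromosome 17, placed by their order relative to H2-Eb1 and not by distance. Filled purple points had an unadjusted p under 0.05 and rings mark the 2 genes that passed after adjustment. H2-Eb1 and H2-Ea lie below 0 beside H2-Aa and H2-Ab1, which lie above.

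MHC class II genes scored higher in LA with 1 exception. 9 of the list's 11 genes were measured, and in all 9 the 2 lines did not overlap: 8 were higher in LA and H2-Eb1 was lower (20% of all genes were higher without overlap and 13.6% lower). The median difference of the list was 1.41, against 0.117 for all genes, and it stayed between 0.989 and 1.83 when any 1 of the 4 arrays was left out. H2-Aa and H2-Ab1, the alpha and beta chains of the class II molecule A, scored -0.359 and 0.828, and -0.216 and 0.548, in L84. In LA they scored 1.52 and 1.22, and 1.71 and 1.37. The differences were 1.14 ± 0.389 and 1.37 ± 0.381. In 1 H2-Aa probe set the lines overlapped (0.754 ± 0.705), with 1.38 on L84 2 beside 1.37 and 0.875 in LA. Cd74, the invariant chain that escorts class II molecules, differed by 1.41 ± 0.323 and had the smallest adjusted p of the 8 (0.320 by limma).

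Genes that act on peptide loading were on the same side. H2-DMa and H2-DMb2, which exchange peptides on class II molecules, differed by 1.46 ± 0.463 and 1.39 ± 0.437. H2-Oa, which restrains that exchange, differed by 1.98 ± 0.602, and Ctss, the protease that trims the invariant chain, by 1.65 ± 0.636. Ciita, the activator that class II promoters depend on, scored -0.574 and -0.319 in L84 and 0.550 and 2.17 in LA, a difference of 1.81 ± 0.636. None of these passed after adjustment.

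H2-Eb1 was lower in LA, and so was H2-Ea, the alpha chain that pairs with it. H2-Ea was not on the list and was looked up after the values of H2-Eb1 were seen. It scored 0.488 and 0.962 in L84, -0.508 and -0.0334 in LA, and -0.787 to -0.167 in LC, a difference of -0.995 ± 0.297 (adjusted p = 0.396 by limma). The 2 chains of molecule E were thus lower in LA and the 2 chains of molecule A higher, and H2-Eb1 and H2-Aa are neighbours among the measured genes.

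The 250 bases before the start of H2-Aa and H2-Eb1 are shown because these genes scored in opposite directions while both promoters hold a Y box, 1 of the elements through which class II promoters are recognised. Sequences are from RefSeq (GRCm38.p6), written 5′ to 3′ on the strand of the gene, with the Y box CTGATTGG, searched on both strands, in capitals. H2-Aa covers chr17:34287824-34288073 on the minus strand and H2-Eb1 covers chr17:34305617-34305866 on the plus strand.
H2-Aa: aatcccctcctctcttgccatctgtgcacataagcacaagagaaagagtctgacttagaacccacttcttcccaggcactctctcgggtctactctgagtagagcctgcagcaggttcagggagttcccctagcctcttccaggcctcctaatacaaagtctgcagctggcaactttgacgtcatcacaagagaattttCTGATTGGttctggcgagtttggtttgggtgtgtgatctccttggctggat
H2-Eb1: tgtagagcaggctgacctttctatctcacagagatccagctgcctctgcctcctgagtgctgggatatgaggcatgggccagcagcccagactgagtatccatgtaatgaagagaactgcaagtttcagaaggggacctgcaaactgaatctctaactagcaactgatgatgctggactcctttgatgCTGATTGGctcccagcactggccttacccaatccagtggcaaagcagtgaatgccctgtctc
The Y box began 51 bases before the start of H2-Aa and 62 bases before that of H2-Eb1. It was found in 3 of the 6 list members with a promoter in the table, H2-Aa, H2-Eb1 and H2-Oa, and in 1198 of 27025 promoters of the same length (4.43%). The word contains the CCAAT-box core in reverse. A match is a description of the sequence only.

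Other immune lists leaned the same way as most class II genes, with no member passing the test. Over all genes 20% were higher in LA without overlap and 13.6% lower. Of 34 macrophage and Langerhans cell genes 18 were higher in LA without overlap and 0 lower, with a median difference of 1.09. Of 47 chemokines and their receptors 21 were higher and 2 lower, with a median of 1.07, and of 37 lymphocyte genes 16 were higher and 2 lower, with a median of 1.02. In bulk tissue fewer cells of a type and less RNA per cell cannot be told apart. The 3 lists kept their sign without any 1 of the 4 arrays, but the macrophage median was 0.380 without L84 1 and 1.73 without L84 2. L84 1 scored lowest of the 4 arrays in all 3 lists.

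Single genes show how much of this rested on L84 1. Csf1r, the growth factor receptor of macrophages, scored -1.54 on L84 1 and 0.487 on L84 2, and 1.56 and 1.13 in LA. Adgre1, which encodes the macrophage antigen F4/80 in mice, scored -1.33 and 1.74 in L84 and 1.09 and 0.612 in LA, so its lines overlapped. By contrast Cd14, the co-receptor for bacterial lipopolysaccharide, scored -0.769 and -0.0786 in L84 and 1.51 and 1.69 in LA, a difference of 2.03 ± 0.498. Retnla, a secreted protein of alternatively activated macrophages, scored -1.27 and -0.428 against 1.92 and 1.32, a difference of 2.47 ± 0.389 (adjusted p = 0.214 by limma). Itgax, the integrin CD11c of dendritic cells, went against the list at -0.374 ± 0.386 and overlapped.

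Among the chemokines Ccl3 and Ccl4, which attract monocytes and T cells, differed by 1.80 ± 0.753 and 2.25 ± 0.722. Cxcr3, a chemokine receptor of activated T cells, differed by 1.85 ± 0.661, and Ccr7, the receptor that guides dendritic cells to lymph nodes, scored 0.196 and 2.50 in LA against -0.607 and -0.0951 in L84. Cxcl10, an interferon-induced chemokine, was 1 of the members lower in LA, at -1.06 ± 0.735, and its lines overlapped. Among lymphocyte genes the T cell co-stimulator Cd28 differed by 1.96 ± 0.530, and Cd3e, a chain of the T cell receptor complex, scored 0.210 and 0.212 in L84 and 2.16 and 0.580 in LA. Cd3d, another chain of the same complex, differed by -0.641 ± 0.946 and overlapped. Of 38 interferon response genes 8 were higher (21.1%) and 3 lower (7.89%) without overlap, beside 20% and 13.6% of all genes. Their median of 0.145 was 0.620 without L84 2, 0.00210 without LA 1 and -0.00263 with array medians set to 0. Of 14 measured MHC class I presentation genes 6 were higher and 1 lower without overlap, with a median of 0.336, which was 0.696 without L84 1 and 0.0405 without L84 2.

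Most smooth muscle and pericyte genes scored higher in LA, and none passed the test. 15 of 18 scored higher and 3 lower. 11 were higher without overlap (20% of all genes) and 0 lower (13.6%). 9 were higher at an unadjusted p under 0.05 (7.03% of all genes), and the median difference was 1.27, between 1.03 and 1.69 with any 1 of the 4 arrays left out. Acta2, smooth muscle actin, scored -1.72 and -0.601 in L84, 0.968 and 0.852 in LA, and -0.210 to -0.140 in LC, a difference of 2.07 ± 0.407 (adjusted p = 0.276 by limma). The lines thus lay on opposite sides of the control. The same order was seen for Actg2, another smooth muscle actin (2.46 ± 0.453). Cnn1, calponin, which binds actin and myosin, differed by 2.25 ± 0.582. Tagln, transgelin, scored -1.55 and -1.41 in L84 and 0.0849 and -0.342 in LA, so there L84 stood apart from LC. Skeletal muscle genes had a median of 0.00131 over 47 genes, which was 0.631 without L84 1, -0.674 without L84 2 and -0.146 with array medians set to 0, with 5 higher and 3 lower without overlap.

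Other dermal lists were higher too but leaned on single arrays. Without overlap 20% of all genes were higher and 13.6% lower. Endothelial genes had a median of 1.03 over 27 genes, with 9 higher and 1 lower without overlap, and the median was 0.379 without LA 1. Blood cell and haem genes had a median of 1.05 over 22 genes, with 9 higher and 1 lower, and 0.424 without L84 1. Hba-a1, an alpha globin chain, scored -0.890 and -0.0899 in L84 and 2.17 and 1.08 in LA. Fibroblast and matrix genes had a median of 0.938 over 43 genes, with 13 higher and 3 lower, but -0.0841 without L84 1. For 26 collagens the median was 0.158 with all 4 arrays and -0.451 without L84 1. Col1a2 and Col3a1, chains of the main fibrillar collagens, scored -2.47 and -2.24 on L84 1 but 0.572 and 0.547 on L84 2, beside 0.898 and 0.874 on LA 1. Neutrophil genes, with a median of 0.851 over 18 genes, scored -0.200 without L84 1 and LA 2 together. The 18S probe sets were also high on L84 1 alone of the 4 arrays, and their part in these lists was not tested.

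**Figure D3:**
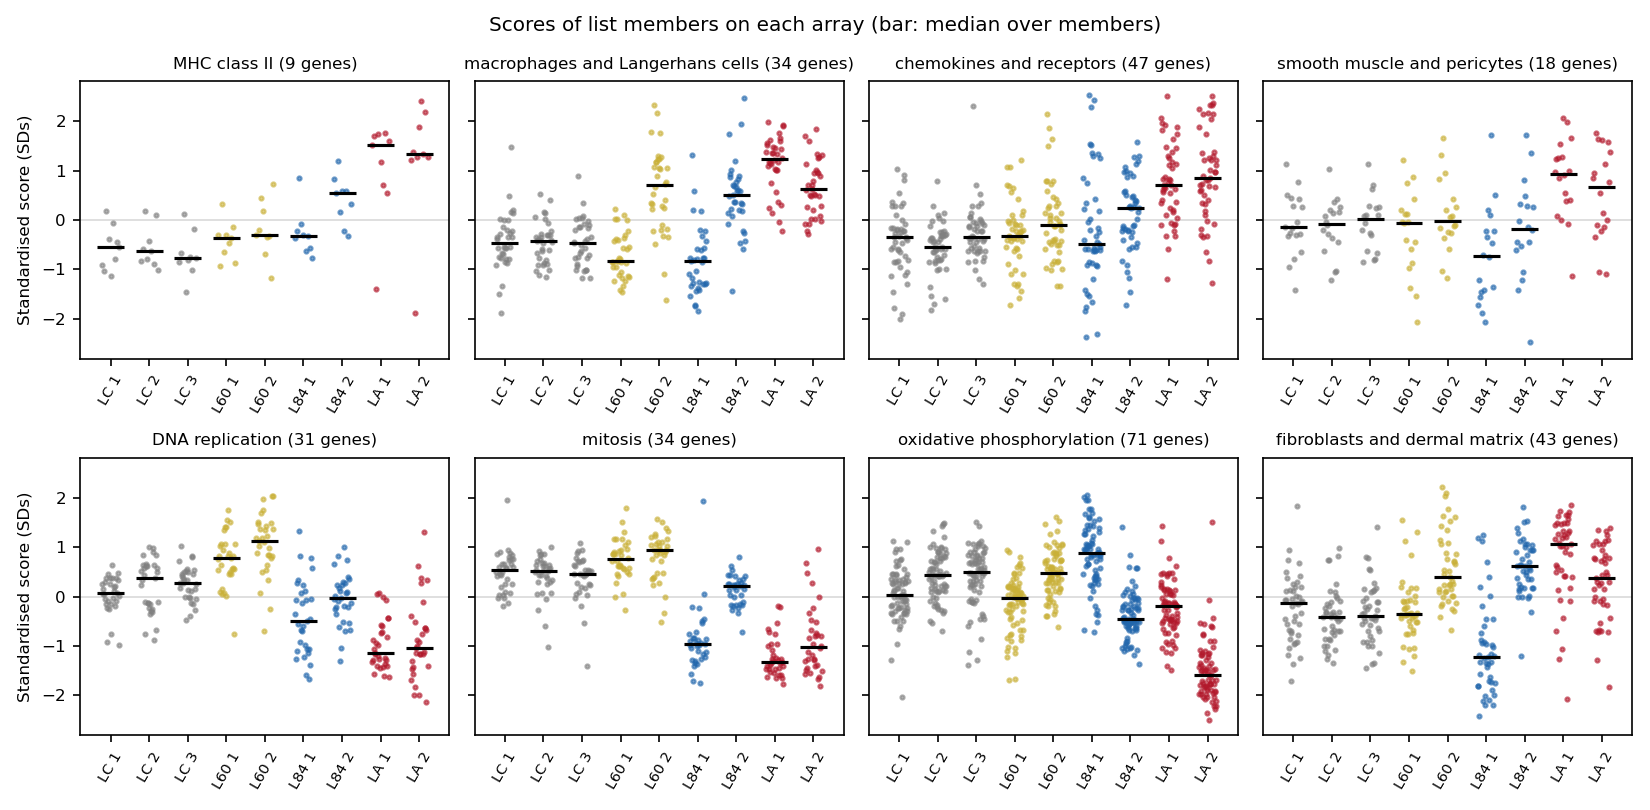
Scores of the members of 8 gene lists on each of the 9 arrays, with a bar at the median over members (grey LC, yellow L60, blue L84, red LA; vertical axis in SDs over the arrays). The MHC class II panel shows H2-Eb1 alone at the bottom on the LA arrays, the mitosis panel shows L84 1 near the LA arrays and L84 2 above them, and the oxidative phosphorylation panel shows L84 1 and LA 2 at opposite ends.

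Genes of DNA replication and mitosis scored lower in LA. Without overlap 13.6% of all genes were lower and 20% higher. Of 31 replication genes 15 were lower without overlap and 1 higher, with a median of -0.740, between -1.19 and -0.584 with any 1 of the 4 arrays left out. Of 34 mitosis genes 16 were lower and 0 higher, with a median of -0.747. The mitosis median was -1.31 without L84 1 and -0.254 without L84 2, since L84 1 itself scored low (list medians of -0.966 on L84 1, 0.206 on L84 2, -1.33 on LA 1 and -1.03 on LA 2). Set against L84 2 alone, both LA arrays were lower in 29 of the 34 mitosis genes and 24 of the 31 replication genes, beside 23.9% of all genes. None passed after adjustment.

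Pcna, the sliding clamp of replication forks, scored 0.336 and 0.223 in L84, -1.13 and -2.0 in LA, and -0.149 to 0.441 in LC, a difference of -1.84 ± 0.408 (adjusted p = 0.305 by limma). Mcm6, a subunit of the replicative helicase, scored 0.281 and -0.217 in L84 and -1.56 on both LA arrays, a difference of -1.59 ± 0.272. Its partner Mcm2 differed by -1.30 ± 0.252. In all 3 genes the LC mean was nearer L84. Mki67, the proliferation marker Ki-67, scored -0.500 and 0.0214 in L84, -1.45 and -1.68 in LA, and 0.454 to 0.740 in LC, a difference of -1.32 ± 0.213. Cdk1, the kinase that drives mitosis, scored -0.766 and 0.431 in L84 and -1.46 and -1.56 in LA, a difference of -1.35 ± 0.410, and Prc1, which bundles the spindle midzone, differed by -1.34 ± 0.400. Top2a, the topoisomerase of mitotic chromosomes, scored -1.35 on L84 1 and -1.26 on LA 1 and overlapped (-0.312 ± 0.606). For the mitosis list the median difference from LC was -1.73 in LA and -0.862 in L84, where both values share the same LC arrays.

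The promoters of Mcm6, Cks1b and Cdk1 are shown because these genes scored low together on the LA arrays and hold elements known for cell cycle control: the E2F element of replication genes and the CHR element of mitotic genes. Each sequence is the 250 bases before the start from RefSeq (GRCm38.p6), on the strand of the gene. Mcm6 covers chr1:128359706-128359955, Cks1b covers chr3:89418292-89418541 and Cdk1 covers chr10:69352913-69353162, all on the minus strand. Capitals mark TTTGGCGC or TTTCGCGC for the E2F element in Mcm6 and TTTGAA for the CHR element in the other 2, on either strand. The Cdk1 sequence also holds the E2F word TTTCGCGC and the Y box word CTGATTGG, both left in lower case.
Mcm6: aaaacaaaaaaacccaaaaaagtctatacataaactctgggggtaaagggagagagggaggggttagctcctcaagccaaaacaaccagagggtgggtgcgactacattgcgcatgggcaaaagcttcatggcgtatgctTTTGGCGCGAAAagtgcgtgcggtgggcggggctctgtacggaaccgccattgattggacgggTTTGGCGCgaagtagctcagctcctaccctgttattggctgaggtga
Cks1b: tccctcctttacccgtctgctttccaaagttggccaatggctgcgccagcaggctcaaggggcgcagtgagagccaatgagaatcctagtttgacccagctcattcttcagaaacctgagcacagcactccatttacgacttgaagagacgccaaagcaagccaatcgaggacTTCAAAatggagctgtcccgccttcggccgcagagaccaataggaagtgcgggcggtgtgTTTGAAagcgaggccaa
Cdk1: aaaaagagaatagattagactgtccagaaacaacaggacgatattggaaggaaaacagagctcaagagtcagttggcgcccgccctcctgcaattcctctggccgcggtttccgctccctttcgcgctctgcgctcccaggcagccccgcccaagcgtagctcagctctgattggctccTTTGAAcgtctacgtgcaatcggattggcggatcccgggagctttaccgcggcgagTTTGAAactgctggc
The E2F words occurred 3 times before Mcm6, beginning 110, 106 and 47 bases before its start, and the first pair overlap on opposite strands. They were found in 4 of 26 replication genes with a promoter in the table (15.4%) and in 205 of 27025 promoters (0.76%). The CHR word began 77 and 17 bases before the start of Cks1b and 71 and 15 bases before that of Cdk1. It was found in 13 of 29 mitosis genes (44.8%) and in 4934 of all promoters (18.26%). Each word was searched in its own list and in all promoters, and no factor's binding was measured.

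Lists of energy metabolism and protein turnover were lower in LA with all 4 arrays, but this rested on the 2 arrays that stood apart. Over all genes 13.6% were lower without overlap and 20% higher. Oxidative phosphorylation genes had a median of -1.16, with 25 of 71 lower without overlap and 0 higher. Mitochondrial ribosomal genes had a median of -0.943, with 28 of 72 lower and 3 higher, and proteasome genes one of -0.902, with 11 of 34 lower and 0 higher. Ribosomal protein genes had a median of -0.591 (14 of 43 lower, 1 higher). Without L84 1 and LA 2 together the 4 medians were 0.138, 0.000759, 0.142 and 0.0929. List medians for oxidative phosphorylation were 0.876 on L84 1 and -1.58 on LA 2, against -0.458 on L84 2 and -0.190 on LA 1. Ndufs5, a subunit of respiratory complex I, was an exception to this reliance: it scored 0.227 and 0.597 in L84 and -1.41 and -1.98 in LA, a difference of -2.11 ± 0.336 (adjusted p = 0.214 by limma).

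Lipid synthesis followed the same arrays. Cholesterol and fatty acid synthesis genes had a median of -0.689 over 24 genes, and 0.423 without L84 1 and LA 2. Of them 6 were lower and 0 higher without overlap (13.6% and 20% of all genes). Sebaceous gland genes had a median of -0.625 over 18 genes and -0.0340 without those arrays. Fasn, the fatty acid synthase, scored 1.88 and 1.03 in L84 and -0.194 and -1.25 in LA, a difference of -2.18 ± 0.652. Scd1, a fatty acid desaturase of sebaceous glands, scored 2.04 and 0.517 in L84 and 0.0297 and -0.566 in LA.

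**Figure D4:**
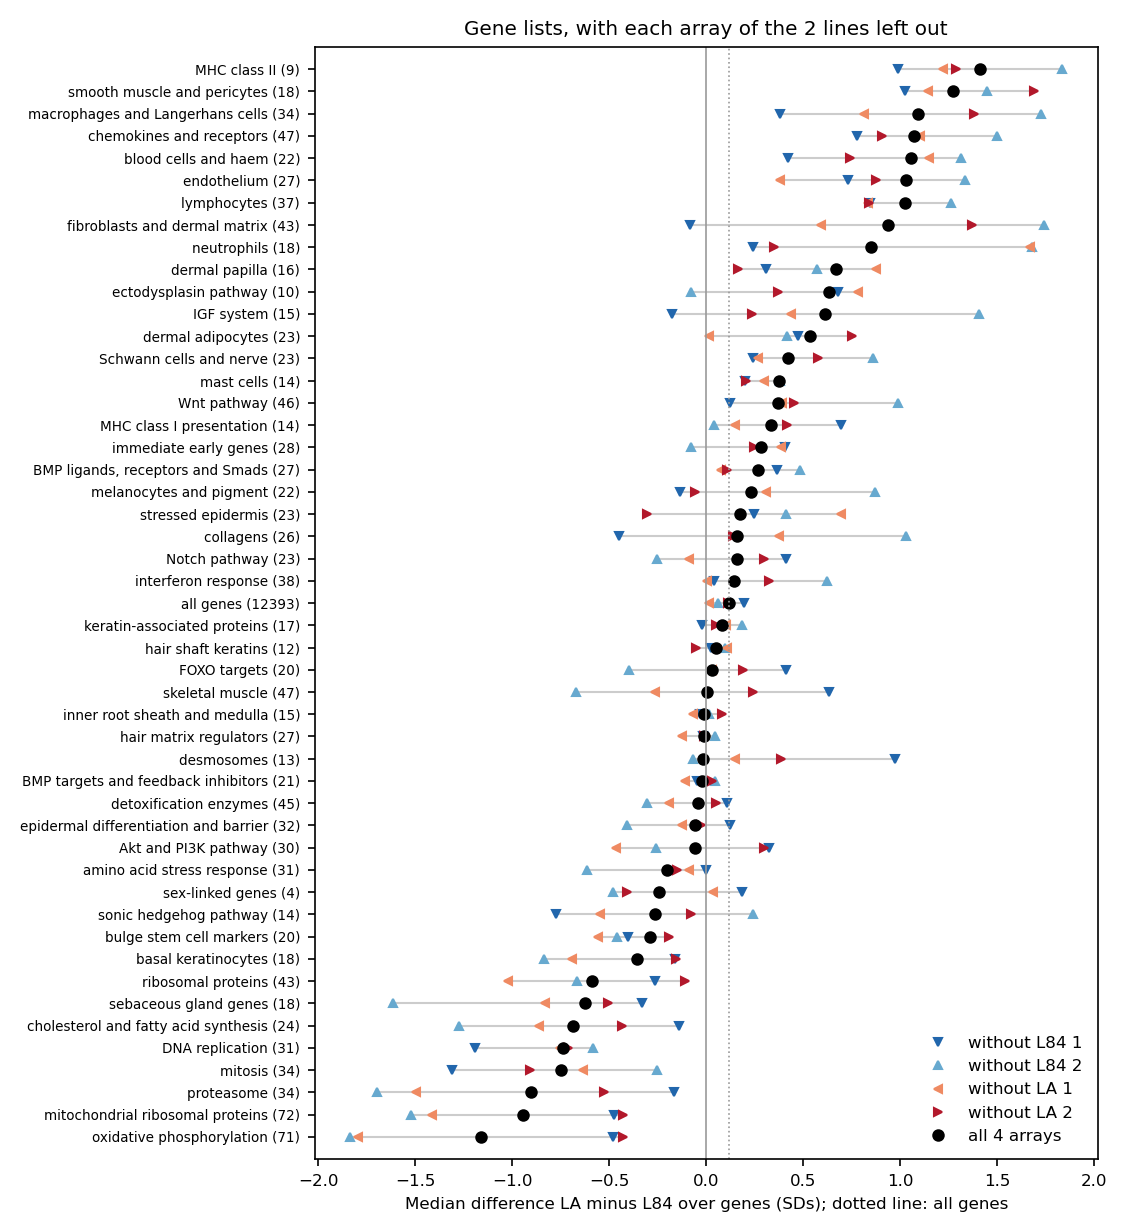
Median difference LA minus L84 over the measured members of each gene list, in SDs, with all 4 arrays (black) and with each of the 4 arrays left out (coloured triangles). The number of genes is in brackets and the dotted line is the median of all genes at 0.117. The MHC class II, smooth muscle, DNA replication and mitosis lists keep their side, while fibroblasts, collagens and desmosomes cross 0 without L84 1.

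Most hair genes scored low in both lines against LC. For 12 hair shaft keratins the median difference between the lines was 0.0479, turning to -0.0998 with array medians set to 0. Without overlap 2 were higher and 1 lower (20% and 13.6% of all genes). The median difference from LC was -2.07 in LA and -2.12 in L84, from the same LC arrays. For 17 keratin-associated proteins, which crosslink keratin in the shaft, the median between lines was 0.0824 (-0.0653 with array medians set to 0), and for 15 inner root sheath and medulla genes it was -0.0118. Krt86, a shaft keratin, scored -1.02 and -0.920 in L84, -1.02 and -0.861 in LA, and 1.14 to 1.29 in LC. Its difference between lines was 0.0335, with a 95% interval of -0.219 to 0.286. Tchh, trichohyalin of the inner root sheath, differed by -0.0299 (-0.276 to 0.217) and S100a3, which binds calcium in cuticle cells, by -0.0586 (-0.176 to 0.0586). Krt34 differed by 0.154 (0.00501 to 0.302, adjusted p = 0.458 by limma). For these 4 genes the interval of the difference between the lines was short beside the distance of both lines from LC. Krt32, another shaft keratin, was less even: it scored 0.497 on L84 1 against -0.797, -0.897 and -1.54 on the other 3 arrays.

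Regulators of the hair matrix had no common direction either. Of 27 genes 5 were higher (18.5%) and 6 lower (22.2%) without overlap, beside 20% and 13.6% of all genes. Differences ran from -1.87 to 1.69 with a median of -0.0137, and none passed. Foxn1, the nude gene, scored -0.946 and -1.09 in L84 and -0.673 and -0.331 in LA (difference 0.517, interval -0.347 to 1.38). Hoxc13, which drives hair keratin genes, differed by -0.203 (-0.683 to 0.277), Msx2, a homeobox factor downstream of BMP, by -0.240 (-0.814 to 0.334), Lef1, the Wnt effector of the matrix, by -0.0137 (-1.16 to 1.13), and Dlx2 by -0.0204 (-0.509 to 0.468). Sostdc1, a secreted antagonist of BMP and Wnt, differed by -1.87 ± 0.718, scoring 2.13 on L84 1 and 0.0722 on L84 2.

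BMP target genes had no common direction between the lines. Of 21 targets and feedback inhibitors 5 were higher and 4 lower without overlap (20% and 13.6% of all genes), with differences from -1.40 to 1.90 and a median of -0.0204, and none passed the test. Bambi, a decoy receptor that BMP signalling induces, scored -0.936 and -0.966 in L84, -1.13 and -1.09 in LA, and 0.956 to 1.13 in LC. Its difference between the lines of -0.158 (95% interval -0.460 to 0.145) was small beside the distance of both from LC. Smad6, an inhibitory Smad, differed by -0.269 (-0.839 to 0.302) and Smad7, another, by 0.205 (-1.35 to 1.76). Among the Id genes, direct BMP targets that block differentiation factors, Id3 differed by -0.00959 (-0.866 to 0.847) and Id2 by -0.481 (-2.38 to 1.42). Id1 scored 0.144 and -0.113 in L84 and -0.730 and -2.04 in LA, a difference of -1.40 (-3.27 to 0.474, adjusted p = 0.527 by limma). Tgfbi, a matrix protein induced by TGF-beta, differed by 0.907 (0.173 to 1.64, adjusted p = 0.410).

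The ligands and their antagonists varied more. The list of 27 ligands, receptors and Smads had a median of 0.266, between 0.0764 without LA 1 and 0.483 without L84 2. Without overlap 7 were higher and 3 lower (20% and 13.6% of all genes). Bmp4 scored -2.03 and -0.959 in L84, -0.0410 and -0.451 in LA, and 0.187 to 0.884 in LC, a difference of 1.25 ± 0.442 (adjusted p = 0.445 by limma). Bmp2 scored 2.26 on L84 1 and -0.662 on L84 2, and its lines overlapped (-1.42 ± 0.998). Nog and Chrd encode secreted antagonists that bind BMP ligands. Nog scored -0.877 and -0.0896 in L84 and 2.10 and 0.732 in LA, and Chrd scored -1.55 and -0.182 against 0.496 and 2.10. Their differences were 1.90 ± 0.753 and 2.16 ± 0.734 (adjusted p = 0.475 and 0.430 by limma).

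**Figure D5:**
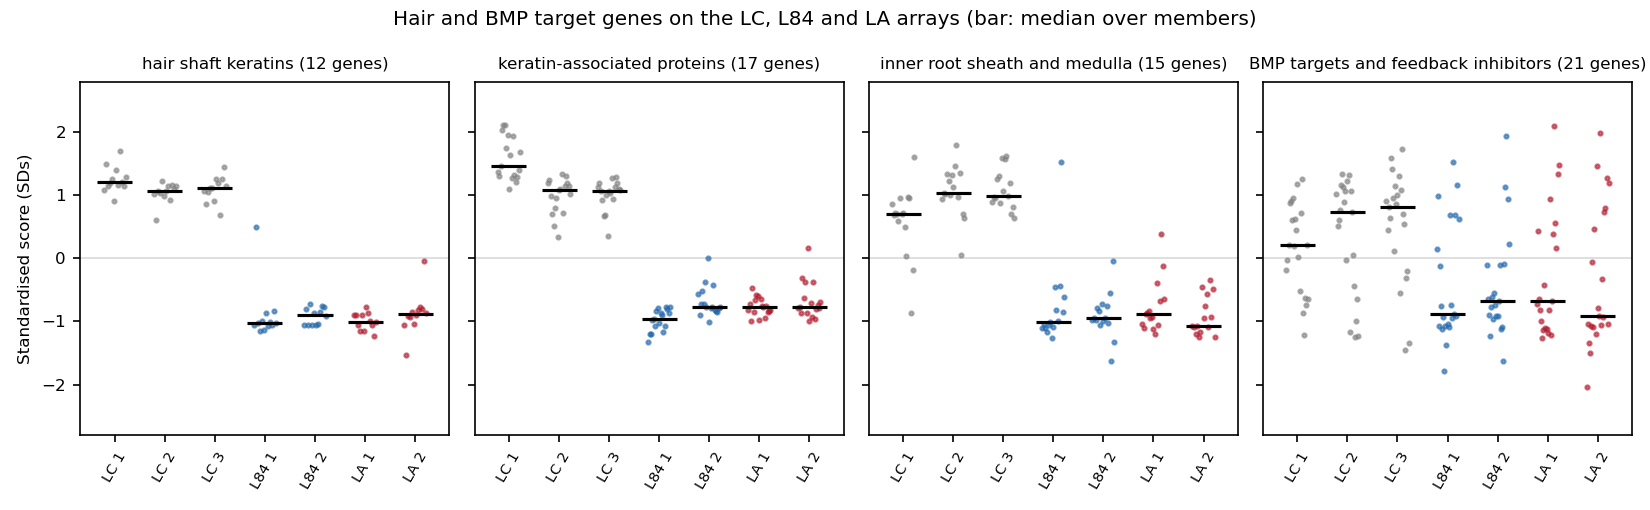
Scores of hair and BMP target genes on the LC (grey), L84 (blue) and LA (red) arrays, with a bar at the median over members (vertical axis in SDs over the 9 arrays). In the hair panels the medians of the 4 arrays of the lines sit together below LC, with single genes such as Krt32 on L84 1 above the rest, and in the BMP target panel the list medians of the 4 arrays lie between -0.922 and -0.670, below those of LC.

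For the Akt pathway, Akt1 scored 1.31 and 0.827 in L84, 0.0648 and -1.61 in LA, and -0.457 to 0.0461 in LC. Its difference of -1.84 ± 0.651 did not pass (adjusted p = 0.445 by limma), and its 2 probe sets differed by -1.34 and -2.34. In the mean of the probe sets the lines did not overlap, and LA 1 lay near the LC arrays while LA 2 lay below them. In 1 Akt1 probe set the lines overlapped (-1.34 ± 1.09), with 0.810 and 0.185 in L84 and 0.584 and -2.27 in LA. Akt2 scored higher in LA, from -1.05 and -0.481 in L84 to 1.31 and 0.270 in LA (1.56 ± 0.678, adjusted p = 0.497 by limma). Its probe sets differed by 0.789 ± 1.13 and 2.32 ± 0.559, and in the first of them the lines overlapped. Whether the probe sets see the transgene is not given in the labels, so these scores do not check the lines. Of 30 measured genes of the Akt and PI3K pathway 7 were higher and 7 lower without overlap (20% and 13.6% of all genes). Their median was -0.0605, and it was 0.324 without L84 1 and -0.467 without LA 1. Irs1, an adaptor between the insulin receptor and PI3K, differed by -1.97 ± 0.638, and the insulin receptor gene Insr by 1.67 ± 0.681. Targets of FOXO had a median of 0.0290 over 20 genes, which was 0.410 without L84 1, -0.399 without L84 2 and -0.119 with array medians set to 0, with 6 higher and 2 lower without overlap. Klf2, described above, was on that list. Sesn3, a stress-induced inhibitor of mTOR signalling, scored 0.165 and -0.126 in L84 and -1.27 and -1.98 in LA, a difference of -1.64 ± 0.318 (adjusted p = 0.266).

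For the defining keratins of the epidermis, each difference is in the SDs of its own gene. Their sizes are thus not on a common scale, and whether they differ between genes was not tested. Krt5 of the basal layer scored 1.10 and 0.892 in L84 and 0.846 and 0.704 in LA, against -1.64 to -0.880 in LC, a difference between the lines of -0.219 (95% interval -0.906 to 0.467). Krt1 and Krt10 of the layers above differed by -0.170 (-1.08 to 0.741) and 0.0775 (-0.704 to 0.859). Krt14, the partner of Krt5, differed by -1.44 (-2.90 to 0.0211), from 1.17 and 0.677 in L84 to -0.347 and -0.679 in LA. Its probe sets had SEs of 0.675 to 0.940 taken alone, and in 1 of them the lines overlapped (0.284 on L84 2, 0.300 on LA 1). Of 18 basal keratinocyte genes 8 were lower in LA without overlap and 0 higher (13.6% and 20% of all genes), with a median of -0.357, which was -0.837 without L84 2, -0.157 without LA 2 and 0.231 without L84 1 and LA 2 together. Of 20 bulge stem cell markers 8 were lower and 0 higher, with a median of -0.288, which was -0.556 without LA 1 and -0.0860 without those 2 arrays. Krt15, a keratin of bulge cells, differed by -0.351 (-0.855 to 0.153). Lhx2, a transcription factor of follicle stem cells, scored 1.04 and 0.100 in L84 and -0.663 and -2.03 in LA, a difference of -1.91 ± 0.576, and Fgf18, a growth factor of the resting follicle, scored 1.81 and 1.29 against 0.0732 and 0.370. Gas1, a hedgehog co-receptor of the bulge and hair germ, differed by -0.873 ± 0.195. None of these passed after adjustment.

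Among further pathways of the follicle, most genes of the Wnt and ectodysplasin lists scored higher in LA. Over all genes 53.6% scored higher, and without overlap 20% were higher and 13.6% lower. Of 46 Wnt pathway genes 30 scored higher, 13 of them without overlap, and 5 were lower without overlap. Their median was 0.370, between 0.122 without L84 1 and 0.989 without L84 2. Of 10 ectodysplasin pathway genes, which signal through NF-kappaB in forming hair follicles, 9 scored higher. Of these 2 were higher without overlap, 20% as over all genes. The median was 0.634, and -0.0812 without L84 2. The 2 were Nfkb2, a subunit of NF-kappaB (1.27 ± 0.341), and the receptor gene Tnfrsf19 (0.831 ± 0.408), and no gene of either list passed the test. Wnt6 and Sfrp5 differed by 2.27 ± 0.581 and 2.18 ± 0.476, against -1.87 ± 0.183 for Sfrp1, described above. Of 14 hedgehog genes 3 were higher and 2 lower without overlap, with a median of -0.265, which was -0.772 without L84 1 and 0.239 without L84 2. The transcription factor gene Gli2 scored 0.118 and 1.60 in L84 and -1.47 and -0.961 in LA (-2.07 ± 0.588), and its relative Gli3 differed by 1.82 ± 0.661. Of 23 Notch pathway genes 4 were higher and 2 lower without overlap, with a median of 0.157, which was 0.413 without L84 1 and -0.252 without L84 2. Dermal adipocyte genes had a median of 0.536 over 23 genes, with 6 higher and 3 lower without overlap, and a median of 0.0124 without LA 1. Lep, leptin, scored -0.627 and -0.691 in L84 and 1.23 and 1.42 in LA (1.98 ± 0.786), while Thrsp, a regulator of fat synthesis, went from 1.75 and 0.769 to -0.618 and -1.17.

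Among genes without overlap, the LC mean more often lay nearer L84 than LA. The same placing over all genes is not given here. The L84 arrays correlated at -0.296 and the LA arrays at 0.229, and the part of this in the placing was not tested. Of the 2473 genes higher in LA without overlap, the LC mean was nearer L84 in 1652 and nearer LA in 699, and in 122 all LA arrays were above and all L84 arrays below every LC array. Of the 1681 genes lower in LA without overlap, LC was nearer L84 in 1089 and nearer LA in 542, and in 50 the lines lay on opposite sides of LC. Slc37a1, Klf2, Tff2, Magix and Scn9a were among the 122, and D17H6S56E-5 and H2-Eb1 among the 50. D17H6S56E-5 was so placed only by the mean of its probe sets.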

How the data were processed

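The deposited values are scores: per the submitters' processing notes RMA was applied, and the deposited table centres each probe set on 0 with unit SD across arrays, so level, fold change and depth cannot be recovered. The scale before standardisation is not given in the sources used here. Of 22690 probe sets 20380 named 1 gene, 691 several and 1555 none, by GEO's platform annotation, and 64 were controls. Scores of probe sets naming the same gene alone were averaged, which gave 12393 genes, 4956 of them from more than 1 probe set. In some genes the probe sets deviated in opposite directions on arrays of a line, and the mean had a smaller SE than any of them alone. This held for D17H6S56E-5, Tbx3, Cyp2d22, Mylk, Sfrp1, Cks1b, Mis18a and Ddx39a.

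The difference LA minus L84 was tested with limma 3.58.1 in R 4.3.3, as a linear model over all 9 arrays (5 residual degrees of freedom) without variance moderation, with Benjamini-Hochberg adjustment over all genes and a threshold of 0.05. Errors are standard errors of that model and intervals are 95%. The number of arrays limits the precision. Within a group 1369 genes had tied arrays. Scripts were tested on simulated data.

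The arrays compared and the 48 gene lists were chosen with earlier results of these data known, so lists are described by counts and medians without a test. Genes named were the 15 of largest change among those that passed in each direction, filled up by smallest p with the lines not overlapping and without predicted or clone-named genes. To these came up to 4 members per list of largest difference without overlap, and a fixed set of hair, epidermal, BMP and Akt genes, not all of which are reported here. Adgre1, Ccr7, Cd3d, Cd3e, Cd74, Cxcl10, H2-Aa, H2-Ab1, H2-DMa, H2-DMb2, H2-Ea, Itgax, Mcm2, Rasal3, Sik1, Tagln, Tnf, Tnxb, Top2a and Vps52 lie outside this rule and were chosen after their values were seen. Alternatives left out arrays or changed the variance, the block, the probe sets or the centring.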

Additional observations from a re-analysis of the deposited data

Results flagged for a closer look

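Slc37a1 (2.23) and D17H6S56E-5 (-2.27) were the 2 genes whose difference between the lines passed limma's test. In both gene scores the lines lay on opposite sides of all LC arrays. For D17H6S56E-5 this held only for the mean of its 2 probe sets. Taken alone, they scored 0.414 and 0.540, and 0.579 and 0.578, in L84, against LC arrays of up to 0.583 and 0.615. Klf2 (2.48), Tff2 (2.77), Magix (2.70), Scn9a (2.67) and H2-Eb1 (-2.66) also had both LA arrays on one side and both L84 arrays on the other side of every LC array. For these 5 genes the difference between the lines did not pass after adjustment, and whether their effects against LC differ is therefore not shown.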

How the results depend on the processing

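The count of 2 genes that passed (1 higher and 1 lower in LA) depended on the arrays in the fit. Leaving out 1 array at a time gave 0 to 131 genes in all, 0 to 75 higher and 0 to 56 lower. The highest counts came without L84 2, where 131 genes passed (75 higher, 56 lower) and both genes named above were among them. None passed without LC 1 (1140 genes at an unadjusted p under 0.05) or without LC 2 (952). Leaving out L60 1 or L60 2 left 1 gene, D17H6S56E-5. Without L84 1 and LA 2 together 22 genes passed (12 higher, 10 lower), Slc37a1 among them. Without the 3 arrays high in 18S 1 gene passed (0 higher, 1 lower).

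With only the 4 arrays of LA and L84 no gene passed (0, with 491 at an unadjusted p under 0.05). The same count of 0 came from limma's moderated variance (1557), array weights (585), 1 probe set per gene (1259) and every probe set on its own (2242). With array medians set to 0 the same 2 genes passed. With the replicate number as a block 1 gene passed (1 higher, 0 lower), Cyp4v3, and neither Slc37a1 nor D17H6S56E-5 (adjusted p = 0.411 and 0.187 by limma). Deviations of same-numbered arrays correlated at 0.345 between L84 and LA, the lines compared here, and at -0.0833 to 0.160 otherwise. The main test took no pairing because not every same-numbered pair deviated together. It therefore leaves out a link by number between L84 and LA. Xist was negative on all 4 arrays numbered 1 and positive on the others, and 18S was above 0 on LC 1, L60 1 and L84 1 alone. What the number stands for is not given in the labels, and its part in the differences was tested only through the block. The causes of these changes were not tested.

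Of 537 alternative values for the 30 genes named by test or smallest p, 2 had the other sign, both for Nt5c2. These genes were picked with the lines not overlapping, so leaving out an array could not turn their sign. The sign count is therefore no support for them. Of 459 values for the 26 fixed genes, 32 had the other sign, in 11 genes. Of 48 lists 18 kept the sign of their median under every alternative run. A filter on low values was not run, since a score holds no level.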
